A study of Mus musculus with 8 samples.

Results

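The replication-dependent histone gene clusters were followed in Hi-C maps of mouse embryonic stem cells (mESCs), as 6 bins of 500 kb of the mm9 genome build out of 5322 bins in all, of which 5093 passed a filter on coverage. The bins were chosen by position and not by a measured value, though earlier results of these data were known. Chr13 holds the large Hist1 cluster, with a first active end at 21.5–22 Mb (Hist1 end 1), a second at 23.5–24 Mb (Hist1 end 2), and the bins 22–22.5, 22.5–23 and 23–23.5 Mb between them (middle 1, middle 2 and middle 3). Chr3 holds the small Hist2 cluster in the bin 96–96.5 Mb (Hist2). All 6 bins passed the filter.

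Replication-dependent histone genes encode the core histones H2A, H2B, H3 and H4, which wrap DNA into nucleosomes, and the linker histone H1. They are transcribed in S phase, when new chromatin is assembled, and their mRNAs end in a stem-loop instead of a poly(A) tail. In the nucleus their clusters gather factors such as NPAT into histone locus bodies. Hi-C ligates DNA ends that lie close together in fixed nuclei, so that the count for a pair of bins measures how often they were in contact over a population of cells. On such maps, gene-rich active chromatin (the A compartment) and gene-poor inactive chromatin (the B compartment) each contact their own kind preferentially.

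The 2 groups were mESCs nucleofected with an antisense morpholino oligonucleotide (AMO) against the RNA of the LINE-1 (L1) repeat, or with a scrambled AMO (SCR AMO), at 5 nmol per 100 µl. Both groups were otherwise treated alike, in LIF medium, with sorting of nucleofected cells at 12 h and harvest at 36 h; the labels name no strain or cell line. Each group has 2 samples. The study's methods describe them as independent transfections. The oligonucleotides are shown because they define the groups, 5′ to 3′ in lower case with nothing marked.
L1 AMO: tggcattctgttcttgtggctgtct
SCR AMO: cctcttacctcagttacaatttata

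The samples held 112381720 and 22252054 contacts (SCR AMO replicates 1 and 2) and 58030519 and 46263849 contacts (L1 AMO replicates 1 and 2), so that SCR AMO replicate 2 was the shallowest. Contacts between chromosomes took 22.3% and 22.8% of all contacts in SCR AMO and 15.8% and 14.2% in L1 AMO. The totals of both SCR AMO maps depart from the valid pairs that the study tabulates, whereas those of the L1 AMO maps match, so how the maps were made and the AMO cannot be told apart in these data. With 2 samples against 2, an exact permutation test cannot give a p below 0.333, and that value is stated only as the limit of the design. A map of a cell population also cannot separate more cells with a contact from closer contact in each cell.

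The RefSeq gene table (GRCm38.p6, another build than that of the maps, so used only for names and order) gives 56 Hist1 genes on chr13 and 10 Hist2 genes on chr3. The Hist1 genes fall into blocks, split wherever more than 20 other genes intervene. The first block holds 19 genes from H2bc13 to H4bc24, followed by 39 other genes, 31 of them tRNA genes. The next block holds 5 genes (H2ac12, H2bc12, H4c9, H2ac11 and H2bc11). Then come 147 other genes with 75 Vmn1r genes, which encode vomeronasal receptors for pheromones, and 46 tRNA genes. The following block holds 31 genes from H4c8 to H2ac1, and a lone pseudogene, H2af-ps2, lies 491 genes further. The Hist2 block runs from H2ac21 to H2bc18 with 4 H2A, 2 H2B, 3 H3 genes and 1 H4 gene. Which 500-kb bin holds the block of 5 genes was not determined, since its position is known only in the other build.

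Promoter sequences were found in RefSeq for 59 of these 66 genes. In the 250 bases before the start, the letters CCAAT occurred on either strand in 49 of the 59 promoters (83.1%), against 34.5% of 27025 promoters in all. The letters TATAAA occurred in 28 of the 59 (47.5%), against 13% in all. These are matches of letters in a window and not sites of a factor. The first H3 gene with a promoter in each of the large Hist1 blocks and in Hist2 is shown, to let the clusters be compared, with CCAAT and TATAAA (either strand) in capitals; the intervals are in GRCm38.p6 and cannot be set against the mm9 bins.
H3c10 (chr13:21717378-21717627, plus strand): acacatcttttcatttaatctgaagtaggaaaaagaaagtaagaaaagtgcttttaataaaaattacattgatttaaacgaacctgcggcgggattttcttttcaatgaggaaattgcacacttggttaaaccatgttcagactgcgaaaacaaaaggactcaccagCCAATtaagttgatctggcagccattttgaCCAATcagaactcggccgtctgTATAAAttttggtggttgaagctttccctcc
H3c8 (chr13:23535168-23535417, plus strand): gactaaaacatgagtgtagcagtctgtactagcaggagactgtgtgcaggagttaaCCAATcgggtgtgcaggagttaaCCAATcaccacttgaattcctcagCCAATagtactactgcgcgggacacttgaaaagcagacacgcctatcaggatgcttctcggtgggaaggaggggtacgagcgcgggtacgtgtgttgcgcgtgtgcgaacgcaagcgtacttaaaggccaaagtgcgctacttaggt
H3c15 (chr3:96239128-96239377, minus strand): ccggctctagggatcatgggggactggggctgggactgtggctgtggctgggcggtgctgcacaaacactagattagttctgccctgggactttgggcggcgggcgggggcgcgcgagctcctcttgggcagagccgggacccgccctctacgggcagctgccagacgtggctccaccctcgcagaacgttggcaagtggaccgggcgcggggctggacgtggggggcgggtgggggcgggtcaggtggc
The H3c10 and H3c8 promoters carry CCAAT more than once and H3c10 also TATAAA, whereas the H3c15 window holds neither. These single promoters do not stand for their clusters. CCAAT occurred on either strand in 43 of 51 Hist1 promoters and in 6 of 8 Hist2 promoters. TATAAA occurred in 26 of 51 and in 2 of 8.

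The Hist1 ends and Hist2 lay deep in the A compartment, and the bins between the ends near its border. Eigenvector 1 of the mean contact map, signed so that positive values mark A, was 1.29 at Hist1 end 1 (above 90.2% of chr13 bins), 1.24 at Hist1 end 2 (above 85.5%) and 1.42 at Hist2 (above 94.9% of chr3 bins). It was also positive, though lower, at middle 1 (0.70), middle 2 (0.15) and middle 3 (0.23), above 67.7%, 55.3% and 57.4% of chr13 bins. The middle bins are therefore called by their position here, not inactive.

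To ask whether the Hist1 ends met across the bins between them, each contact was divided by the mean of all chr13 pairs at the same distance (observed/expected, where 1 is the mean). The ends, 2 Mb apart, shared 923, 138, 459 and 377 contacts in SCR AMO replicates 1 and 2 and L1 AMO replicates 1 and 2. These correspond to 1.82 and 1.47 times the mean in SCR AMO and 1.76 and 1.99 times in L1 AMO. Of 230 other chr13 pairs at this distance, 15, 31, 12 and 8 were higher in the respective samples. The pair thus stood high among its equals in every sample, at or above 86.5% of them. It was not the highest. A further set was 41 autosomal pairs of the same distance whose ends are A and whose 3 bins between are all B. Of these, 14, 24, 10 and 5 were higher. The Hist1 pair is not itself of this class, since its bins between have a positive eigenvector 1.

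**Figure D1:**
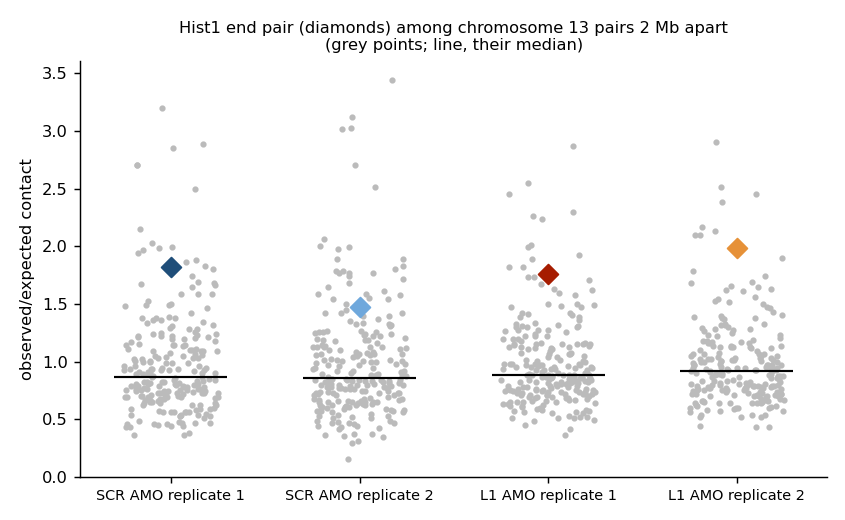
Observed/expected contact (y axis, no unit) of chr13 pairs 2 Mb apart in each of the 4 samples. Grey points are the other 230 pairs, the line is their median and the diamond is the pair of Hist1 ends, which lies at 1.47 to 1.99 while the medians lie at 0.86 to 0.92.

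The end-to-end contact did not differ between the groups beyond the spread of the samples. The mean was 1.64 ± 0.25 (SD, n = 2) in SCR AMO and 1.87 ± 0.16 (SD, n = 2) in L1 AMO, a log2 ratio of 0.19, and the samples of the groups overlapped (exact two-sided permutation p = 0.667). The ratios of the single samples ran from -0.05 to 0.43 on the log2 scale. In edgeR's quasi-likelihood test on the counts, with the expected count of each sample as offset, the log2 ratio was 0.07 with a standard error of 0.07 (adjusted p = 0.684). Of 231 chr13 pairs at this distance, 32.9% had both L1 AMO samples above both SCR AMO samples, and the ends were not among them.

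The contacts inside Hist1 formed a pattern that was the same in every sample. Hist1 end 1 made few contacts with the bins next to it on the inner side: 0.60, 0.54, 0.64 and 0.62 with middle 1, and 0.32, 0.36, 0.40 and 0.48 with middle 2, in the order of samples above. Its value with middle 1, a directly adjacent bin, exceeded at most 5.13% of adjacent chr13 pairs. Hist1 end 2 was set off in the same way from middle 3 (0.56, 0.57, 0.60 and 0.59) and from middle 2 (0.63, 0.61, 0.61 and 0.60).

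The bins between contacted one another often. Middle 1 with middle 3 reached 2.03, 2.03, 2.11 and 2.23, above 96.1% to 98.7% of chr13 pairs at 1 Mb. Middle 2 with middle 3 reached 1.47, 1.45, 1.53 and 1.53. In each sample these contacts inside the middle lay above the mean, and those of an end with its adjacent middle bin lay below it.

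Middle 1 went against its place between the ends in one contact. With Hist1 end 2, 1.5 Mb away, it gave 1.59, 1.72, 1.77 and 1.71, above 88.8% to 94.4% of pairs at that distance. This is the level of the contact between the ends themselves, while the matching contact of Hist1 end 1 with middle 3 stayed at 0.69, 0.68, 0.80 and 0.93.

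**Figure D2:**
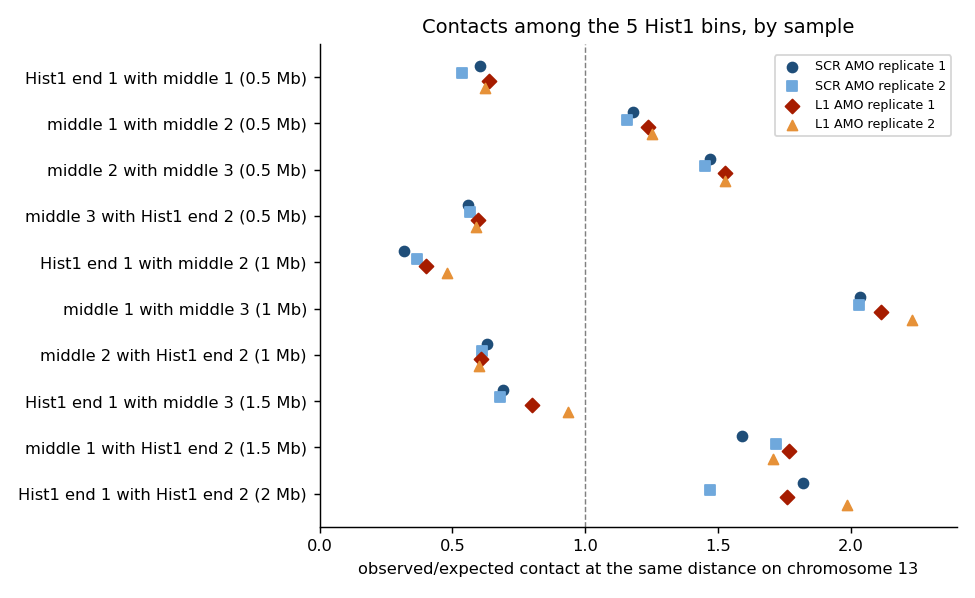
Observed/expected contact (x axis, 1 is the chr13 mean at that distance, dashed) of the 10 pairs of different Hist1 bins (y axis, with their distance), 1 marker per sample. The ends with each other, middle 1 with middle 3 and middle 1 with Hist1 end 2 lie well above 1 in all 4 samples, and both contacts of an end with its adjacent middle bin lie near 0.6.

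Between groups, the mean contact of the ends with the bins between them was higher in L1 AMO. The mean of the 6 end-to-middle pairs was 0.73 and 0.75 in SCR AMO and 0.80 and 0.82 in L1 AMO, a log2 ratio of 0.14, with the groups apart. This is the smallest p the design allows (0.333), and 45% of 231 stretches of 5 bins on chr13 were apart in this direction, with a median log2 ratio of 0.02. Without balancing, the log2 ratio was -0.0044. The single pairs did not all follow the mean. Middle 2 with Hist1 end 2 was lower in both L1 AMO samples (0.607 and 0.600) than in SCR AMO (0.630 and 0.609). Middle 1 with Hist1 end 2 overlapped between the groups. The 2 pairs that passed the edgeR test were both of Hist1 end 1.

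Hist1 end 1 with middle 2 rose by a log2 ratio of 0.42 with a standard error of 0.09 (adjusted p = 0.000515). Its raw counts were 424 and 94 in SCR AMO and 286 and 260 in L1 AMO. The maps differ in depth, and the L1 AMO maps are deeper than SCR AMO replicate 2, so the raw counts alone do not show the rise. Hist1 end 1 with middle 3 rose by 0.32 with a standard error of 0.09 (adjusted p = 0.0132). Contacts within each end bin also rose, by 0.11 in Hist1 end 1 (adjusted p = 0.0142) and by 0.13 in Hist1 end 2 (adjusted p = 0.000491). The remaining 11 of the 15 pairs did not pass. Of the 4 that passed, end 1 with middle 2 also passed with TMM scaling in place of the distance offset (0.35, adjusted p = 0.0190), and end 1 with middle 3 did not (0.28, adjusted p = 0.061). The contacts within the end bins turned to log2 ratios of -0.029 in end 1 and -0.16 in end 2 there, with adjusted p values of 0.913 and 0.403. In observed/expected, 10 of the 15 pairs had both L1 AMO samples higher, beside 36.6% of all chr13 pairs up to 2 Mb.

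The ratio of end-to-end over end-to-middle contact, which sets the first against the second, was 2.49 and 1.97 in SCR AMO and 2.19 and 2.42 in L1 AMO. The groups overlapped (exact permutation p = 1, log2 ratio 0.05).

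Over whole chromosomes, 879 pairs of a member bin with a bin of its own chromosome could be tested by edgeR. Of these 26 were called higher in L1 AMO and 8 lower at an adjusted p of 0.05, beside 1.86% and 1.4% of 413468 pairs of all chromosomes. With TMM scaling the split turned to 48 higher and 69 lower, beside 27498 higher and 18423 lower of the 413468 pairs of all chromosomes. Without SCR AMO replicate 1, the deepest sample, fewer pairs were called, both among the member pairs and over all chromosomes.

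The calls higher in L1 AMO lay close to the bins. Of 44 member pairs up to 2 Mb apart, 17 were called higher, beside 15.1% of 25106 such pairs of all chromosomes. Hist2 had the most of them, with 7 of its 9 pairs up to 2 Mb called higher, at log2 ratios of 0.21 to 0.66. Hist1 end 1 had 5 of 9 and Hist1 end 2 had 3 of 9, at log2 ratios of 0.11 to 0.42 and 0.13 to 0.68. Middle 3 had 3 and middle 2 had 1, the latter being the pair with end 1 already given. With TMM scaling 7 of the 44 pairs were called higher, 2 of them of Hist2. Over all chromosomes that scaling called 4172 of 25106 such pairs higher, a similar share. The larger share at the member bins thus depended on the scaling.

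Beyond 2 Mb, 9 contacts of the member bins were called higher, all with B bins, and 8 lower, all with A bins. Over all chromosomes 1.01% of 388362 pairs at these distances were called higher and 0.77% lower. Of the pairs that include an A bin, 93.7% of those called higher joined it to a B bin and 73.3% of those called lower to an A bin, so the split at the histone bins followed that of A bins in general. Hist1 end 2 gained contact with the B bin chr13 26.5–27 Mb, 3 Mb away, from 0.42 and 0.45 in SCR AMO to 0.78 and 0.79 in L1 AMO (log2 ratio 0.88, standard error 0.17). The next bin, 27–27.5 Mb, rose by 0.88, and 28–28.5 Mb by 0.65. On the other side, Hist1 end 1 gained contact with 15–15.5 Mb (0.86), middle 1 with 17–17.5 Mb (0.88) and middle 3 with 16.5–17 Mb (0.89), all B bins. The losses named by the rule were middle 1 with the A bin 55–55.5 Mb, which fell by 1.13 on the log2 scale, and Hist1 end 2 with the A bin 51.5–52 Mb, which fell by 1.08.

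Hist2 showed the same kinds of partner on chr3. It gained contact with the B bins 92–92.5 Mb (log2 ratio 1.03) and 99.5–100 Mb (0.83). It lost contact with the A bins 122.5–123 Mb, 87–87.5 Mb and 86.5–87 Mb, at log2 ratios of -0.98, -0.89 and -0.87. Its contact with 87–87.5 Mb, 9 Mb away, was 1.44 and 1.95 times the mean in SCR AMO and 0.81 and 0.85 times in L1 AMO. Partners were named only where the groups lay apart, so the lack of overlap is not a separate result.

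The long-range profile was summarised as the mean observed/expected contact beyond 10 Mb with the 20% of bins of the chromosome that have the highest eigenvector 1 (A bins) and with the 20% that have the lowest (B bins). The Hist1 ends together gave 1.53 and 1.55 with A bins in SCR AMO and 1.37 and 1.31 in L1 AMO, a log2 ratio of -0.20 with the groups apart. The middle bins gave means of 1.00 and 0.98 against 0.90 and 0.92 (log2 ratio -0.12). Middle 2 taken alone overlapped between the groups, with 0.921 and 0.911 in SCR AMO and 0.865 and 0.917 in L1 AMO. Hist2 gave 1.40 and 1.23 against 1.07 and 1.15 (log2 ratio -0.25). The lower contact with A bins was shared by most bins deep in A: 85.1% of the 47 chr13 bins of highest eigenvector 1 and 85.7% of the 63 such bins of chr3 were apart in the same direction. The middle bins lie outside this set, and no share was counted for bins of their kind.

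**Figure D3:**
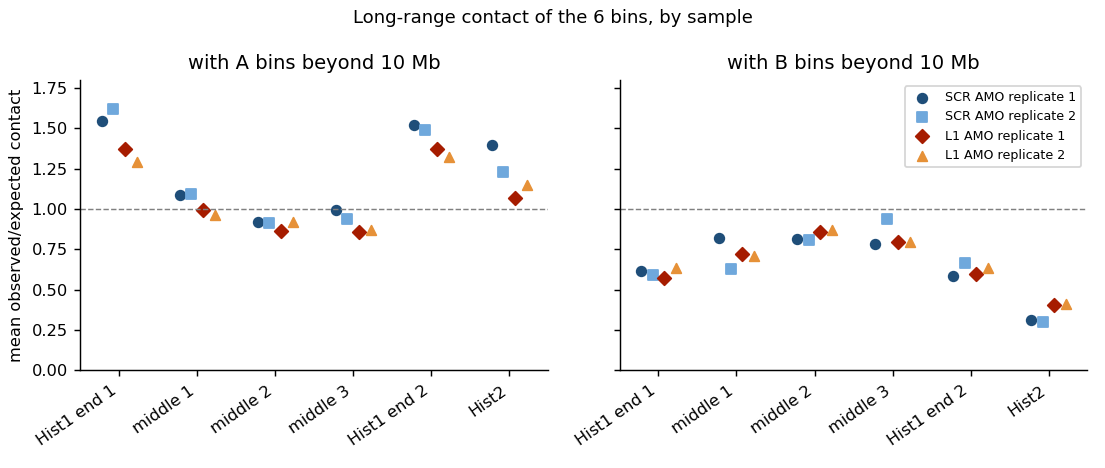
Mean observed/expected contact beyond 10 Mb (y axis) of the 6 bins (x axis) with A bins (left) and B bins (right) of their chromosome, 1 marker per sample. With A bins both L1 AMO samples lie below both SCR AMO samples for both Hist1 ends and Hist2, and with B bins they lie above them for Hist2 and overlap them for the Hist1 ends.

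Contact with B bins was higher in both L1 AMO samples at Hist2 and overlapped between the groups at the Hist1 ends; the difference between the clusters was not tested. Hist2 gave 0.31 and 0.30 in SCR AMO and 0.41 and 0.41 in L1 AMO, a log2 ratio of 0.41, and 82.5% of the 63 chr3 bins of highest eigenvector 1 were apart in that direction, with a median log2 ratio of 0.25. The Hist1 ends gave 0.60 and 0.63 in SCR AMO and 0.58 and 0.63 in L1 AMO, a log2 ratio of -0.01 with the groups overlapping (exact permutation p = 1). Among the 47 chr13 bins of highest eigenvector 1, the ends had the 2 lowest log2 ratios, -0.01 for end 1 and -0.02 for end 2. The median of the 47 was 0.44, and 44 of them were apart upwards.

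**Figure D4:**
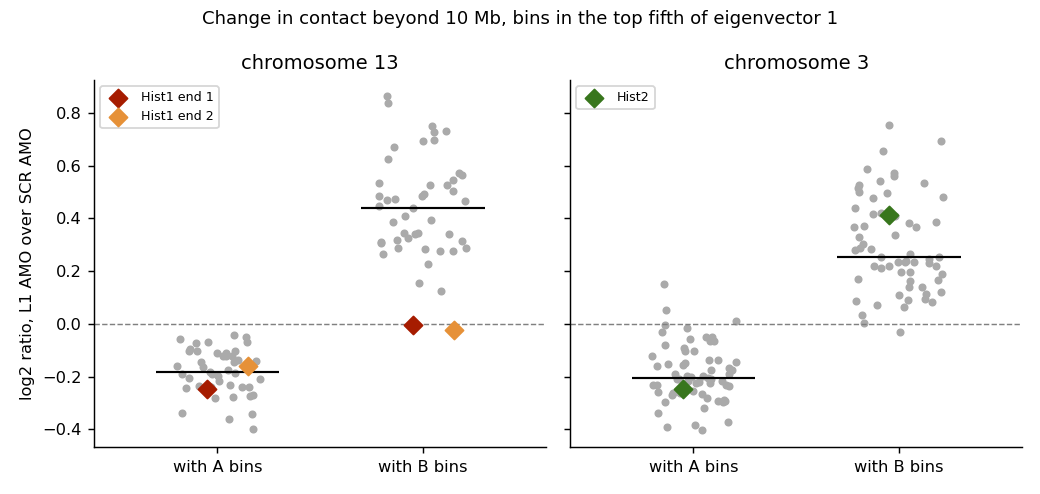
Log2 ratio of L1 AMO over SCR AMO (y axis) of contact beyond 10 Mb with A bins and with B bins, for the 20% of bins of highest eigenvector 1 of chr13 (left, 47 bins) and chr3 (right, 63 bins). Grey points are other bins, lines are medians and diamonds are the histone bins; the Hist1 ends lie with the others for A bins and are the lowest for B bins.

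In SCR AMO the contact of the ends with B bins was among the highest of the 47, with 1 and 2 bins above end 1 in replicates 1 and 2, and 3 and 0 above end 2. In L1 AMO, 27 and 20 bins lay above end 1 and 20 and 19 above end 2. The median of the 47 moved from 0.46 and 0.45 in SCR AMO to 0.59 and 0.62 in L1 AMO, up to the level at which the ends had been. How far the starting level bears on the small change was not tested. The ratio of contact with A over B bins had a log2 ratio of -0.24 at end 1, with the groups apart, and of -0.14 at end 2, where they overlapped (2.60 and 2.24 in SCR AMO, 2.31 and 2.08 in L1 AMO). Its median over the 47 bins was -0.64, with 46 of them apart downwards. At Hist2 it was -0.66 (chr3 median -0.45).

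Coverage also differed between the groups. Relative to the median bin of the chromosome, coverage was 1.18 and 1.18 in SCR AMO and 1.08 and 0.99 in L1 AMO at Hist1 end 2. It was 1.25 and 1.21 against 1.07 and 0.95 at Hist2, and 1.03 and 1.04 against 0.99 and 0.93 at Hist1 end 1. All 3 active bins were lower in both L1 AMO samples, which held for 38.3% of all 5093 bins. Of the middle bins, middle 1 was also lower in both L1 AMO samples, with 1.000 and 0.997 against 0.993 and 0.965. Middle 3 overlapped between the groups, with 0.956 and 0.966 against 0.989 and 0.940. Middle 2 went the other way, with 0.90 and 0.92 against 0.97 and 0.96. Balancing divides such differences out, and their part in the contacts was not tested.

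The share of contacts beyond 10 Mb was lower in L1 AMO at the 3 active bins and at the middle bins alike. Within 2 Mb, Hist2 made 63.9% and 66.9% of its balanced contacts on chr3 in SCR AMO and 69.1% and 71.0% in L1 AMO. Beyond 10 Mb it made 22.6% and 20.6% against 17.6% and 16.3%. The median chr3 bin changed less, from 24.2% and 23.2% to 22.2% and 21.9% beyond 10 Mb. Hist1 end 1 went from 23.7% and 23.3% to 18.7% and 17.1% beyond 10 Mb, and Hist1 end 2 from 23.7% and 22.9% to 18.9% and 17.2%. The median chr13 bin went from 20.7% and 19.5% to 18% and 17.6%.

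The profiles of the ends over the rest of chr13 were alike. Across 210 bins more than 5 Mb from both, the correlation of their log2 observed/expected values was 0.76 and 0.40 in SCR AMO and 0.57 and 0.40 in L1 AMO. It was the highest of the 10 pairs of Hist1 bins in every sample and exceeded that of 73.5% to 94.8% of 230 other pairs at 2 Mb. The bins share a library and depth sets the size of r, so the values describe each map and are not compared between groups.

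Between chromosomes, the Hist1 ends had their highest observed/expected contact outside chr13 with the Hist2 bin. The expected value here is the mean of all balanced contacts between the 2 chromosomes. Hist1 end 2 and Hist2 shared 41, 9, 21 and 8 contacts in the order of samples above. These were 19, 19.7, 32.4 and 18.5 times the mean, with 95% exact Poisson intervals of 13.6 to 25.7, 9.0 to 37.4, 20.0 to 49.5 and 7.98 to 36.4 that cover counting error only. Of 73790 pairs of a chr13 and a chr3 bin, this pair ranked 3, 4, 1 and 8 from the top. Hist1 end 1 and Hist2 shared 22, 7, 8 and 2 contacts, at 11.4, 17, 13.2 and 4.84 times the mean. That pair ranked 9, 7, 15 and 2276, so it was not near the top in L1 AMO replicate 2.

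Middle 1 again resembled an end. It shared 18, 4, 8 and 4 contacts with Hist2, at 9.39, 9.94, 13 and 9.30 times the mean. Middle 2 shared 11, 0, 1 and 0 contacts and middle 3 shared 13, 1, 1 and 0. In the deepest map, SCR AMO replicate 1, these were 6.25 and 7.04 times the mean (95% intervals 3.12 to 11.2 and 3.75 to 12.0), at ranks 61 and 38, so that the middle bins also lay above the mean there. Averaged over the 4 samples, end 2, end 1 and middle 1 ranked 4, 7 and 9 among the 73790 pairs, while middle 3 and middle 2 ranked 1959 and 8014, an average that gives the shallow maps the same weight as the deep one. The count of 0 for middle 2 in SCR AMO replicate 2 has an upper exact Poisson bound of 9.76 times the mean, above the value in the deepest map.

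**Figure D5:**
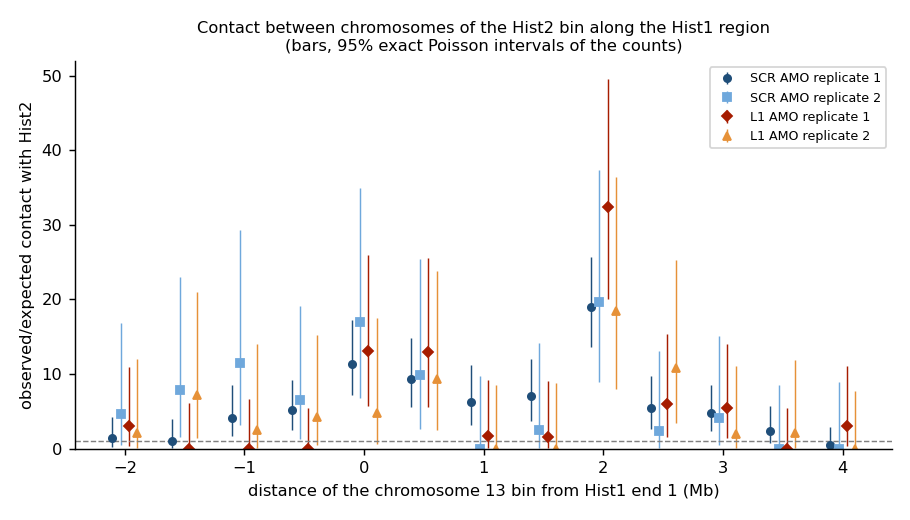
Observed/expected contact of the Hist2 bin of chr3 (y axis) with chr13 bins around Hist1 (x axis, distance in Mb from Hist1 end 1), 1 marker per sample with 95% exact Poisson intervals of the counts. Hist1 end 2, at 2 Mb, gives 18.5 to 32.4 and end 1 and middle 1 give 4.84 to 17, while middle 2 and middle 3 give 0 to 7.04.

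The contact between the clusters did not differ between the groups beyond the spread of the samples. The ends together gave 15.2 and 18.3 in SCR AMO and 22.8 and 11.7 in L1 AMO, a log2 ratio of 0.04 (exact permutation p = 1). The middle bins gave 7.56 and 4.16 against 5.43 and 3.10 (exact permutation p = 0.667, log2 ratio -0.46). The single-sample ratios for the ends ran from -0.65 to 0.58 on the log2 scale, so a change of that size would not be seen here. In each of the 4 samples Hist2 ranked 1 of 4858 bins of other chromosomes for the ends.

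The contact fell off unevenly around Hist2. Summed over the samples, the ends shared 118 contacts with Hist2, 16.7 times the expected count. They shared 79 with 95.5–96 Mb (10.0 times) and 58 with 95–95.5 Mb (7.54 times), but 30 with 96.5–97 Mb on the other side (3.83 times). The peak at Hist2 was mainly that of end 2, with 79 contacts against 41 with 95.5–96 Mb, whereas end 1 had 39 against 38. From Hist2, the chr13 bins just outside the ends, 21–21.5 Mb and 24–24.5 Mb, gave 4.27 and 5.87 times. Histone and tRNA genes have near-identical copies in other clusters, and whether reads shared between copies add to these counts was not tested.

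The other strong partners of the ends lay on chr3 and chr11. After Hist2 (mean 17 over the samples) came chr3 95.5–96 Mb (9.95), chr11 58.5–59 Mb (6.90), chr3 95–95.5 Mb (6.65) and chr11 3–3.5 Mb (6.54), where the median of all bins was 1.09. In raw counts the last of these had 98, 20, 28 and 17 contacts in the 4 samples, against 63, 16, 29 and 10 for Hist2, so the order by counts differed from that by observed/expected contact. For chr11 58.5–59 Mb the values were 6.00 and 3.08 in SCR AMO and 7.70 and 10.8 in L1 AMO, from 28, 3, 11 and 10 contacts. The RefSeq table puts the 3 Hist3 genes on chr11; whether they lie in this bin was not determined.

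Hist2 had stronger partners still. Its highest was chr6 146.5–147 Mb at a mean of 23.7, then Hist1 end 2 at 22.4, chr11 101.5–102 Mb at 20.9, chr11 87–87.5 Mb at 20.0 and chr15 98.5–99 Mb at 16.3, against a median of 1.17 over 4779 bins. Chr15 98.5–99 Mb varied most between samples, with 15.8 and 6.16 in SCR AMO and 8.49 and 34.8 in L1 AMO. Chr11 101.5–102 Mb gave 17.1 and 13 in SCR AMO and 29.0 and 24.4 in L1 AMO, from 46, 7, 22 and 12 contacts. What share of bins of other chromosomes differ in this way was not determined, so no group difference is read from it. All 5 of these partners were A bins by eigenvector 1.

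All members made more of their contacts between chromosomes than the median bin of their chromosome. The shares were 32.9% and 34.0% in SCR AMO and 23.3% and 21.8% in L1 AMO for Hist1 end 1, where the chr13 medians were 25.4% and 26.5%, then 18.6% and 17%. For Hist2 they were 35%, 36.3%, 24.9% and 21.4%, beside chr3 medians of 21.9%, 23.4%, 16.3% and 15.2%. The lower shares in L1 AMO followed those of the whole maps given above.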

How the data were processed

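The 4 Hi-C samples were 2 SCR AMO and 2 L1 AMO mESC samples. Per the labels and the study's methods, the authors made small-scale in situ Hi-C libraries and processed reads with HiC-Pro (2.7.1b in the submitters' processing notes, which also name CASAVA) on mm9. The deposited matrices list whole-number counts of contacts per pair of 500-kb bins, not balanced; each L1 AMO sample has 2 matrices, which were summed, and no other column was used.

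Bins whose coverage fell under 0.1 of the chromosome median in at least 1 sample were dropped, and the maps were balanced iteratively (Python 3.11.15, numpy 2.4.6). Observed/expected is the balanced contact over the mean of the chromosome at the same distance, or of the chromosome pair. Eigenvector 1 came from the mean map of the 4 samples; its sign was set on chr1 by the B1 to L1 repeat ratio of the study's repeat table and on other chromosomes by their contacts with chr1. Group values were compared with two-sided exact permutation tests. Counts of all pairs within chromosomes with a mean of at least 10 were fitted with edgeR 4.0.16 (R 4.3.3), quasi-likelihood test, with the expected counts as offset and Benjamini-Hochberg adjustment over all pairs; both measures were tested on simulated data. Alternatives were other scaling, DESeq2 1.42.0, filters, expected values, corners, distances, single matrices and left-out samples. Depth was 22252054 to 112381720 contacts; intervals cover counting error only. Named bins were all members and their pairs, up to 3 partners beyond 2 Mb per direction and bin with an adjusted p of at most 0.05 and the groups apart, and the 5 strongest bins between chromosomes. Members, lists and tests were chosen with earlier results of these data known. H3K9me3 data and coordinates of genes in mm9 were not used here.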

Additional observations from a re-analysis of the deposited data

How the results depend on the processing

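The lower contact of the Hist1 ends, the middle bins and Hist2 with A bins and the higher contact of Hist2 with B bins kept their direction under all 14 alternatives each; without single samples their log2 ratios ran from -0.24 to -0.17, -0.14 to -0.11, -0.34 to -0.15 and 0.38 to 0.44. The low change of the Hist1 ends with B bins against the other bins of highest eigenvector 1 (-0.46) was an observation made after seeing the data; in 8 alternatives added then it stayed between -0.52 and -0.42. Taken alone, the B contact of the ends (-0.01) turned to 0.087 with the second L1 AMO matrix alone, 0.065 with thinning to the shallowest sample, 0.021 with bins of low coverage left out, 0.079 with corners of 10% and 0.024 beyond 5 Mb, and ran from -0.077 to 0.045 without single samples; that of the middle bins (-0.01) turned to 0.048 without balancing, 0.013 with the first matrix alone, 0.013 without bins of low coverage and 0.13 with corners of 10%, and ran from -0.029 to 0.0026 without single samples.

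Without balancing, the log2 ratio was -0.062 for the end-to-end contact, -0.0044 for end-to-middle contact, -0.060 for their ratio and -0.21 for the ends with Hist2. The ratio was also -0.011 after thinning. Without single samples these ran from 0.041 to 0.35, 0.12 to 0.15, -0.11 to 0.23 and -0.52 to 0.44. The ends with Hist2 gave -0.29 with the second matrix alone and -0.047 in windows of 3 by 3 bins; the middle bins with Hist2 ran from -0.92 to 0.035 without single samples. The fitted log2 ratio of the ends was -0.012 with TMM and ran from -0.0024 to 0.34 without single samples.

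Member contacts called higher and lower were 48 and 69 with TMM, 56 and 62 with DESeq2 size factors, and 3 and 0 with DESeq2 (18 and 3 at an unadjusted p under 0.05). The first matrix gave 18 and 4 of 772 tested, beside 4757 and 3465 of 354928 over all pairs. The second matrix gave 15 and 1 of 783, beside 4865 and 3471 of 358283. At least 50 counts left 134 member pairs, with 34 and 5 called, beside 6986 and 7314 of 75554 over all pairs. Over all pairs, 7694 higher and 5796 lower became 27498 and 18423 with TMM, 30341 and 16605 with size factors, 1137 and 526 without SCR AMO replicate 1, and 1046 and 485 with DESeq2. Without single samples the member counts ran from 5 to 25 and 0 to 8. The causes were not tested.

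The replicate numbers of the groups gave no sign of pairing (correlation of same-numbered deviations -0.000567 over 75554 pairs). With 2 samples per group and unequal depth, this check cannot exclude a pairing. With the replicate block, 22 member contacts were called higher and 7 lower, beside 6663 and 4987 of 413468 over all pairs. The ends with Hist2 gave -0.034 there, and the block changed no other direction. Low counts limit the contacts between chromosomes: the ends with Hist2 had expected counts of 4.09 and 0.87 in SCR AMO and 1.26 and 0.85 in L1 AMO.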
